A study of Camponotus floridanus with 15 samples.

Results

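The 19 genes described here were selected on their measured levels: low from the embryo to the early pupa, and high from the late pupa into the adult ant. They are 19 of the 18620 rows with a CFLOG identifier, in a table of 18979 rows in all. The table holds poly(A) RNA of the carpenter ant *Camponotus floridanus*, taken from whole bodies and sequenced in 15 strand-specific libraries. The 4 later groups were late pupa minor, late pupa major, minor and male, with 2 libraries each apart from male, which had 1. The 4 earlier groups were embryo, instar 1 larva, instar 4 larva and early pupa, with 2 libraries each. No treatment, strain or genotype is given in the labels for any group, and no exact age. Minors are the small workers and majors the large workers of this species. How many animals or colonies stand behind the replicates is not stated in the labels, so the p-values below reflect library-to-library spread, which may be technical. Reads on genes whose length could be recovered numbered 2670000 to 7300000 per library. A whole body holds every tissue, and more cells of a type cannot be told apart from more RNA per cell.

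Ants pass through complete metamorphosis. The larva feeds and grows, most larval tissues are dismantled in the pupa, and the adult's cuticle, muscles, sense organs and gut are built during the same stage. By its end the insect is a finished adult still inside the pupal cuticle, and the caste of a worker is already visible in its size. Which tissues or processes these 19 genes belong to cannot be read here: the table pairs no identifier with a name, and 0 of its identifiers matched the 14020 genes of the RefSeq table for this species. Genes are given by identifier, without a function or a sequence.

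Membership was set by the measured values. Levels are RPKM, reads per kilobase of gene and per fixed number of reads in the library. To put libraries on 1 scale, geometric means were taken for the 9990 genes detected in all 15, and each library was divided by the median of its ratios to them. The rescaled RPKM was averaged per group as log2(value + 1). A member had all 4 later group means at least 1.5 above every earlier group mean (the margin), and the 4 later means within 1.5 of each other (the span). The margin alone was met by 53 CFLOG genes, of which 34 had too wide a span, most often with minor as the highest later group (18 of 34) and late pupa major as the lowest (16 of 34). By the same margin, 93 CFLOG genes had both late pupal means at least 1.5 above all 6 other groups, and 118 had minor and male at least 1.5 above all 6 others. Since the rule used these means, the later-against-earlier differences below are descriptions and carry no test.

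**Figure D1:**
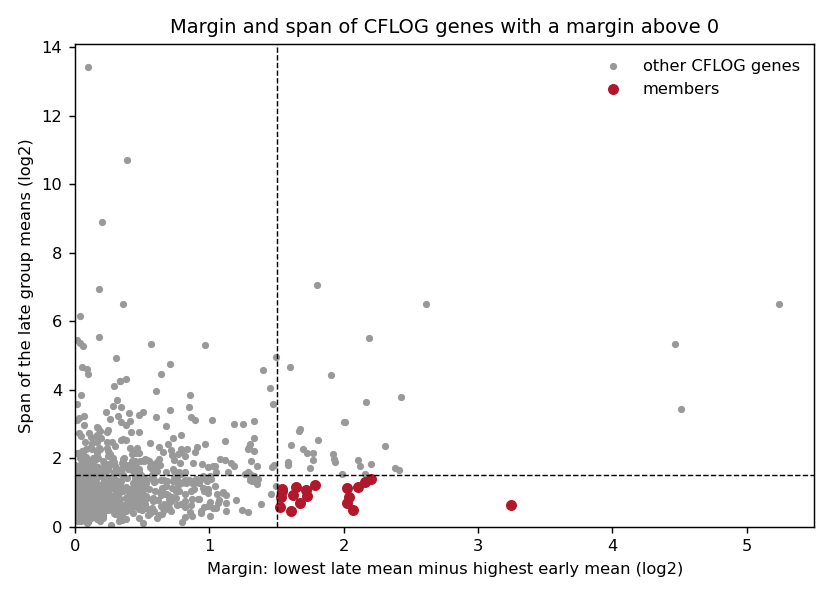
Margin (horizontal, log2) against span of the later group means (vertical, log2) for the CFLOG genes with a margin above 0 that passed the filter on low values, with dashed lines at 1.5. The 19 members are the red points right of the margin line and below the span line. CFLOG007414.2 is the furthest right of the members, at a margin of 3.24. Some genes left out by their span had wider margins, such as CFLOG014540.1 (margin 5.243, span 6.503).

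The members' margins ran from 1.53 to 3.24 with a median of 1.73. CFLOG021112.1 and CFLOG010709.2 were just inside the limit of 1.5, both with a margin of 1.53. CFLOG010218.2 (margin 1.499) and CFLOG009947.2 (margin 1.457) were just outside it. CFLOG010218.2 had between 4.21 and 11.6 rescaled RPKM in the 7 later libraries, against 0.193 to 1.39 in the 8 earlier ones. It entered the set, making 20, when the rescaling factors were taken from CFLOG rows alone or were scaled to a geometric mean of 1. By span, CFLOG004944.2 (1.53) and CFLOG005725.2 (1.54) were left out most narrowly. Among XLOC rows, which the rule does not take, 1 met the same thresholds: XLOC_000343, with 3.32 to 7.12 rescaled RPKM in the later libraries, against 0.221 to 0.65 in the earlier ones.

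Most members were detected in the earlier stages too. The members' median level over the 7 later libraries ran from 6.49 to 2898 rescaled RPKM, and over the 8 earlier libraries from 0.119 to 291. In the later libraries 4 members had a median under 10, 7 lay between 10 and 100 and 8 lay above 100. Of the 19 members 17 were above 0 in all 15 libraries, so most stood at a lower level in the earlier stages and were not absent. Averaged over groups, the later minus earlier difference ran from 2.21 to 4.31 log2 units with a median of 3.25.

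**Figure D2:**
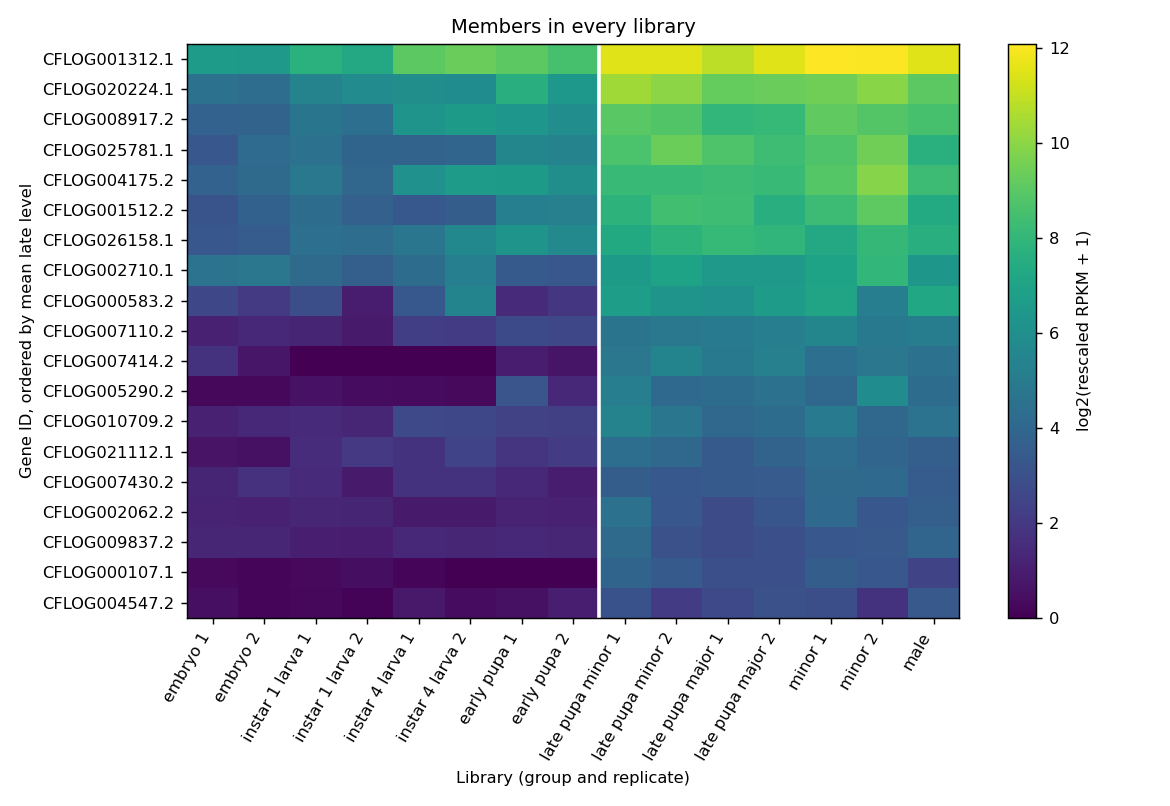
log2(rescaled RPKM + 1) of the 19 members (rows, ordered by mean later level) in the 15 libraries (columns, in developmental order, with a white line between early and late pupa). The step at the white line is shared by all members, while levels before it differ widely between them.

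The separation can also be seen in single libraries, which the rule did not use one by one. In 18 of the 19 members the lowest of the 7 later libraries lay above the highest of the 8 earlier ones. Over all 10619 genes tested, 3.88% showed this, and the members' count follows largely from the rule. On the scale of the deposited RPKM it was again 18 of 19, against 1.5% of the same genes. The member that overlapped was CFLOG000583.2. Its minor libraries had 134 and 34.8 rescaled RPKM and its instar 4 larva libraries 9.21 and 42.8, so minor replicate 2 fell below instar 4 larva replicate 2.

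CFLOG001312.1 was the most abundant member. It had 2895 and 2872 rescaled RPKM in late pupa minor, 1918 and 2898 in late pupa major, 4351 and 4199 in minor and 2909.9 in male, against 100 and 90.0 in embryo, 208 and 155 in instar 1 larva, 520.4 and 631 in instar 4 larva and 532 and 374 in early pupa. The instar 4 larva and early pupa libraries were the highest of the earlier ones, and no earlier library came within 3 times of the lowest later one. By deposited RPKM it ranked 1 of all rows in the male library, 5 and 16 in minor, 13 and 16 in late pupa minor and 21 and 12 in late pupa major. In the earlier libraries its rank lay between 76 and 272.

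The second most abundant member was CFLOG020224.1, a model of 396 nt. It had 1336 and 1021 rescaled RPKM in late pupa minor, 595 and 644 in late pupa major, 705 and 980.4 in minor and 528 in male, against 21.7 and 18.7 in embryo, 42.1 and 56.4 in instar 1 larva, 62.1 and 57.6 in instar 4 larva and 193 and 86.2 in early pupa. Early pupa replicate 1 held the highest earlier value, and as a ratio the 2 early pupa libraries differed more than the 2 of any other group.

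CFLOG007414.2, a model of 336 nt, had the widest margin of the members (3.24). It had 27.1 and 42.4 rescaled RPKM in late pupa minor, 28.3 and 37.0 in late pupa major, 20.5 and 26.5 in minor and 21.7 in male. In embryo it had 2.44 and 0.673, in early pupa 0.901 and 0.593, and in all 4 larval libraries 0. Behind these values were 105 to 242 reads in each later library, and 32, 10, 9 and 5 reads in the embryo and early pupa libraries. A count of 0 allows up to 3 reads, or 0.293 to 0.528 RPKM as deposited in the larval libraries, so a low larval level was not detectable at this depth. CFLOG000107.1 (1500 nt) was the other member with values of 0, in instar 4 larva replicate 2 and both early pupa libraries. It had 4.62 to 14.0 rescaled RPKM in the later libraries, from 136 to 580 reads, against at most 0.353 in the earlier ones, from at most 17 reads.

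**Figure D3:**
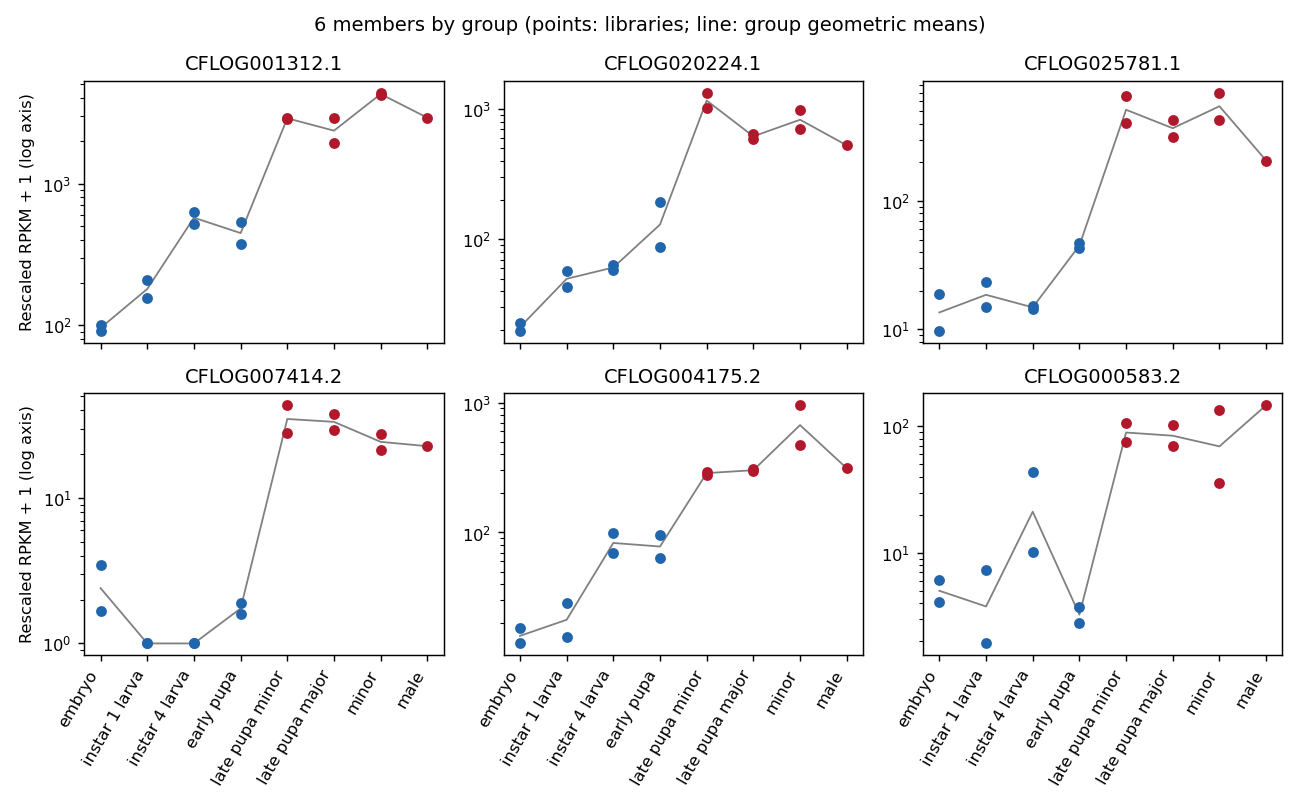
Rescaled RPKM + 1 (log axis, own range per panel) of 6 members by group; points are libraries, red for the later and blue for the earlier groups, and the line joins group geometric means. CFLOG001312.1 and CFLOG004175.2 are higher in instar 4 larva than in instar 1 larva, CFLOG025781.1 is higher in early pupa than before it, CFLOG007414.2 stays at or below 2.44 rescaled RPKM before the late pupa, and CFLOG000583.2 has 1 high instar 4 larva library.

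Among the members CFLOG025781.1 and CFLOG001512.2 had the widest margins after CFLOG007414.2 (2.21 and 2.15). They had the shortest models among the 15 members with a recovered length, 216 and 168 nt. CFLOG025781.1 had 404 and 654 rescaled RPKM in late pupa minor, 429 and 317 in late pupa major, 431 and 696 in minor and 206 in male, against 8.65 to 46.0 in the 8 earlier libraries. CFLOG001512.2 had 165 to 544 in the later libraries, against 7.93 to 37.0 in the earlier ones. In both genes male was the lowest later group by rescaled values and early pupa the highest earlier one. As deposited, late pupa major was the lowest later group (269 RPKM for CFLOG025781.1 and 182 for CFLOG001512.2), against 315 and 252 in male. The ratio of CFLOG025781.1 to CFLOG001512.2 in deposited RPKM stayed between 1.09 and 1.92 over the 15 libraries. Whether they are related or overlapping models was not tested. In embryo replicate 1 their values rested on 73 and 52 reads. This pair was singled out after its values were seen.

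The other members are described by their ranges, with the 7 later libraries before the 8 earlier ones. CFLOG008917.2 had 257 to 559 rescaled RPKM, against 13.1 to 95.4. CFLOG004175.2 had 278 to 952, against 13.0 to 98.8. CFLOG002710.1 had 82.3 to 259, against 8.59 to 35.8. By rescaled values its 2 embryo libraries (23.5 and 26.4) made embryo its highest earlier group after instar 4 larva. CFLOG005290.2 had 16.1 to 57.5 in the later libraries, against 0.19 to 7.97 in the earlier ones, where 7.97 and 1.54 in early pupa stood above the other 6, which reached 0.515. Of the members just inside the margin, CFLOG010709.2 (2256 nt) had 15.7 to 40.9 in the later libraries, against 1.16 to 5.43, and CFLOG021112.1 (546 nt) had 9.83 to 19.6, against 0.456 to 4.48. The least abundant members included CFLOG002062.2 (708 nt), with 5.74 to 22.3 in the later libraries, against 0.831 to 1.45, and CFLOG009837.2 (1086 nt), with 5.74 to 17.3, against 0.884 to 1.52. By rescaled values the 8 earlier libraries of these 2 genes lay close together, with late pupa minor replicate 1 the highest of all 15. As deposited the earlier libraries ran from 0.417 to 3.04 RPKM for CFLOG002062.2 and from 0.755 to 3.41 for CFLOG009837.2. Male was then the highest library in both (17.9 and 22.3). CFLOG007430.2 (1017 nt) had 9.2 to 17.1 rescaled RPKM in the later libraries, against 0.846 to 2.46. Its 2 highest rescaled values were the minor libraries, 17.1 and 16.4. CFLOG004547.2 (429 nt) was the least abundant of all, with 2.38 to 9.4 in the later libraries, against 0.0772 to 1.02 in the earlier ones, from 12 to 131 reads and 1 to 11 reads.

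Within the later groups the members differed in where they peaked. The highest later mean was in minor for 9 members, late pupa minor for 6, male for 3 and late pupa major for 1. The lowest was in late pupa major for 7, male for 7, late pupa minor for 3 and minor for 2. These counts are on the rescaled values, and the place of male, with 1 library and a factor of 1.527, depended on the scale. In CFLOG007414.2, for example, male was the lowest later group by rescaled values and the highest as deposited (33.1 RPKM). The flattest members were CFLOG026158.1, with a span of 0.47, and CFLOG007110.2, with a span of 0.49. CFLOG026158.1 had 159.5 and 224 rescaled RPKM in late pupa minor, 277 and 249 in late pupa major, 158 and 264 in minor and 194 in male. CFLOG007110.2, with 11576 nt the longest of the 15 members with a recovered length, had 24.0 and 27.3 in late pupa minor, 32.1 and 35.6 in late pupa major, 46.1 and 28.7 in minor and 34.2 in male. The values of these 2 genes overlapped between some of the later groups.

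The rule kept later means within 1.5 of each other, so the tests within the later groups are limited by it and nothing is read from their counts. Of the 19 members 0 passed between late pupa major and late pupa minor (limma, Benjamini-Hochberg adjusted p under 0.05 over all 10619 genes tested), where 1.47% of all genes passed. An unadjusted p under 0.05 was found for 6 members, beside 22.9% of all genes, and on the deposited scale for 0 members, beside 9.2%. All 6 were lower in major, and 15 of 19 estimates lay below 0, with a median of -0.29 against 0 over all genes. The largest of the 6 differences were those of CFLOG002062.2 and CFLOG020224.1, both -0.91 (adjusted p = 0.18 and 0.17). On the deposited scale 7 of 19 estimates lay above 0, with a median of -0.17 against 0.06 over all genes. Without late pupa minor replicate 1 the median was -0.28 against 0.01 on the rescaled values. Without late pupa minor replicate 2, CFLOG002062.2 differed by -1.55 and CFLOG009837.2 by -1.34, and both passed (adjusted p = 0.031 and 0.014), where 3.54% of all genes did; the 1 late pupa minor library left was assumed to vary like the other groups. The late pupa minor libraries of CFLOG002062.2 had 22.3 and 8.58 rescaled RPKM, against 5.74 and 8.42 in late pupa major, so only late pupa minor replicate 1 stood apart. In CFLOG020224.1 both late pupa minor libraries (1336 and 1021) stood above both late pupa major ones (595 and 644).

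Between minor and late pupa minor 1 member passed, against 33.3% of all genes. CFLOG004175.2 had 471 and 952 rescaled RPKM in minor, against 278 and 293 in late pupa minor, a log2 difference of 1.23 ± 0.39 (SE, limma, adjusted p = 0.03). The groups did not overlap, but minor replicate 2 was far above replicate 1. The difference was 0.72 without minor replicate 2 (adjusted p = 0.24), and the call also ended without late pupa minor replicate 1 (0.093) or replicate 2 (0.084) and on the deposited scale (0.065). Without minor replicate 1, 3 members passed: CFLOG004175.2 and CFLOG002710.1 were higher in minor (1.73 and 1.22) and CFLOG010709.2 was lower (-1.01), where 35.8% of all genes passed. Without late pupa minor replicate 2, 1 member passed, CFLOG009837.2, lower in minor (-0.86, adjusted p = 0.032), beside 23.8% of all genes.

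Between male and minor 0 members passed by limma, where 11.5% of all genes passed. An unadjusted p under 0.05 was found for 6 members, beside 32.2% of all genes. For the 1 male library the spread of the other groups was assumed. Of the 19 estimates 15 were below 0, with a median of -0.49 against 0 over all genes. The scale decided the sign: with RPKM as deposited 14 of 19 estimates were above 0, with a median of 0.46 beside 0.61 over all genes, and 1 member passed, CFLOG004547.2 (1.86, adjusted p = 0.042). The male library had a rescaling factor of 1.527, against 1.031 and 0.551 in minor. CFLOG025781.1 had the largest decrease among the estimates, -1.41 (adjusted p = 0.068), with 206 rescaled RPKM in male, against 431 and 696 in minor. Leaving out either minor library would set 1 library against 1, so no call is read from it.

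**Figure D4:**
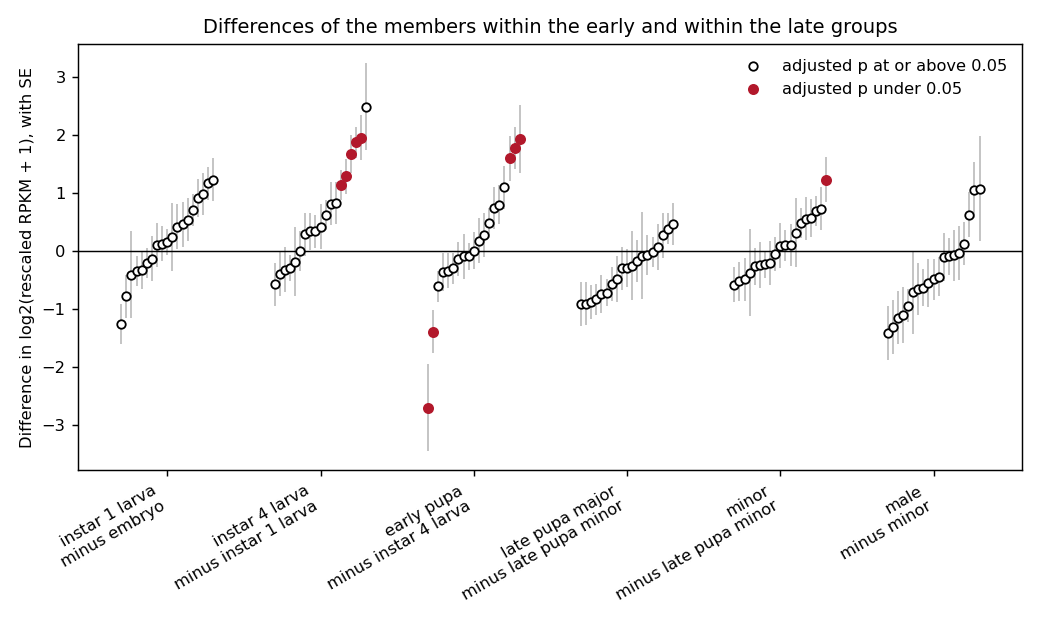
Differences in log2(rescaled RPKM + 1) of the 19 members, with limma's SE, in 3 comparisons within the earlier groups (hatching, instar 1 larva minus embryo; larval growth, instar 4 minus instar 1 larva; pupation, early pupa minus instar 4 larva) and 3 within the later groups; filled points passed at an adjusted p under 0.05. In larval growth 5 members were higher, in pupation 3 were higher and 2 lower, and within the later groups 1 passed.

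Differences among the earlier groups are a separate matter, since the rule set only a ceiling on those means. By rescaled values the highest earlier mean was in instar 4 larva for 8 members, early pupa for 8, instar 1 larva for 2 and embryo for 1. The lowest was in embryo for 9. Some of these places depended on the scale, with factors of 0.498 and 0.951 in instar 4 larva, against 2.332 and 1.616 in embryo. In CFLOG002710.1, for example, embryo was the highest earlier group as deposited (48.8 RPKM), against 21.6 in instar 4 larva. Between instar 1 larva and embryo 0 members passed by limma, where 2.13% of all genes passed. Some members met the filter on low values only through their later libraries, which the rule made high. With only the 2 groups compared, the filter left 15 members in the test. Of these 3 passed, beside 6.33% of all genes. An unadjusted p under 0.05 was found for 6 members, beside 16.8% of all genes. The members nearest to a call were CFLOG021112.1 (1.17 ± 0.29, SE, limma, adjusted p = 0.063) and CFLOG007414.2 (-1.26 ± 0.34, adjusted p = 0.076). CFLOG021112.1 had 1.92 and 2.97 rescaled RPKM in instar 1 larva, against 0.563 and 0.456 in embryo, and it passed with a pseudocount of 0.1 (2.04, adjusted p = 0.017) and with only the 2 groups compared (1.17, adjusted p = 0.025). CFLOG007414.2 had 0 in both instar 1 larva libraries, against 2.44 and 0.673 in embryo. It passed on the deposited scale (-1.9, adjusted p = 0.028) and with a pseudocount of 0.1 (-3.81, adjusted p = 0.0041). Without embryo replicate 2 its difference was -1.78. Of its earlier libraries only embryo replicate 1 reached 1 rescaled RPKM, so with only the 2 groups compared it was not tested. It entered the test through later libraries that the rule made high, so no call is read from it. CFLOG021112.1 and CFLOG007414.2 were named after their values were seen.

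In instar 4 larva 5 of 19 members were higher than in instar 1 larva and 0 were lower, against 5.17% and 2.68% of all genes. CFLOG004175.2 had 68.1 and 98.8 rescaled RPKM in instar 4 larva, against 27.7 and 14.8 in instar 1 larva (log2 difference 1.96 ± 0.39, SE, limma, adjusted p = 0.0081). CFLOG008917.2 had 76.6 and 95.4 rescaled RPKM in instar 4 larva, against 24.8 and 20.5 in instar 1 larva (1.88 ± 0.27, limma, adjusted p = 0.00087). In both genes the 2 groups did not overlap. The other 3, named because the count is small, were CFLOG001312.1 (1.67), CFLOG010709.2 (1.29) and CFLOG007110.2 (1.14). In embryo CFLOG004175.2 had 13.0 and 17.3 and CFLOG008917.2 13.1 and 13.6 rescaled RPKM. In early pupa CFLOG004175.2 had 95.3 and 62.1 and CFLOG008917.2 80.7 and 59.1, and neither gene differed by the test from instar 4 larva (-0.09 and -0.3, adjusted p = 0.92 and 0.49).

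These 5 calls depended on the scale. As deposited, RPKM of all genes differed by a median of -1.02 between instar 4 and instar 1 larva, and none of the 5 passed. CFLOG004175.2 then differed by 0.59 (limma, adjusted p = 0.31) and CFLOG008917.2 by 0.5 (0.4). All 5 estimates stayed above 0. On that scale 0 members were higher and 2 lower, CFLOG001512.2 (-1.87) and CFLOG025781.1 (-1.65), against 1.38% and 49.7% of all genes. Without instar 4 larva replicate 2 or without instar 1 larva replicate 2, only CFLOG008917.2 kept its call of the 5 on the rescaled values. It then differed by 1.72 and 1.74, and CFLOG004175.2, which lost its call, by 1.7 and 1.53. These fits leave 1 library in a group, so no excess over all genes is read from them. CFLOG000583.2, at 2.49 (adjusted p = 0.064), passed without instar 4 larva replicate 1 (3.54, adjusted p = 0.022) or instar 1 larva replicate 1 (3.46, adjusted p = 0.042). CFLOG007110.2 and CFLOG010709.2 lost their calls without any 1 of the 4 libraries.

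Between early pupa and instar 4 larva 3 members were higher in early pupa and 2 lower, against 8.85% and 10.3% of all genes. For 19 genes these counts are near the background. CFLOG005290.2, a model of 1428 nt, had 7.97 and 1.54 rescaled RPKM in early pupa, against 0.277 and 0.222 in instar 4 larva (log2 difference 1.93 ± 0.59, SE, limma, adjusted p = 0.037). Early pupa replicate 1 was the higher of the pair, and without it the difference was 1.02 (adjusted p = 0.35), and the call also ended without instar 4 larva replicate 1 (0.14) or replicate 2 (0.12). CFLOG001512.2 had 35.7 and 37.0 rescaled RPKM in early pupa, against 9.02 and 10.8 in instar 4 larva (1.78 ± 0.37, limma, adjusted p = 0.0051). It kept its call without any 1 of the 4 libraries. Also higher was CFLOG025781.1, with 46.0 and 41.9 rescaled RPKM in early pupa, against 13.4 and 14.2 in instar 4 larva (1.6, adjusted p = 0.012). Its call ended without early pupa replicate 1 (0.081), early pupa replicate 2 (0.056) or instar 4 larva replicate 1 (0.074).

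The 2 members lower in early pupa were CFLOG000583.2 and CFLOG002710.1. CFLOG000583.2 had 1.81 and 2.74 rescaled RPKM in early pupa, against 9.21 and 42.8 in instar 4 larva (-2.7 ± 0.75, SE, limma, adjusted p = 0.024). CFLOG002710.1, of 543 nt, had 9.73 and 8.59 in early pupa, against 18.2 and 35.8 in instar 4 larva (-1.39 ± 0.37, limma, adjusted p = 0.021). Neither overlapped between the groups. In both genes instar 4 larva replicate 2 held the highest earlier value, and without it the differences were -1.66 and -0.92 (adjusted p = 0.19 and 0.16). Both calls also ended without early pupa replicate 1 (0.13 and 0.083) or replicate 2 (0.072 and 0.12). On the deposited scale 3 members were higher and 0 lower, against 6.93% and 4.33% of all genes, and both of these calls were lost (adjusted p = 0.096 and 0.27).

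As a share of the deposited RPKM total, the members held 1.58% and 1.29% in late pupa minor, 0.911% and 1.33% in late pupa major, 2.23% and 1.62% in minor and 2.46% in male, against 0.126% to 0.295% in the earlier libraries. The 2 sets of shares did not overlap, which follows largely from the rule. CFLOG001312.1 alone held 0.397% to 1.41% in the later libraries, against 0.0517% to 0.154% in the earlier ones, and it was the largest contributor in all 15 libraries. The median member had 31.5 and 24.6 RPKM in late pupa minor, 21.6 and 29.1 in late pupa major, 47.6 and 19.2 in minor and 52.2 in male, against 2.59 to 5.69 RPKM in the earlier libraries.

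**Figure D5:**
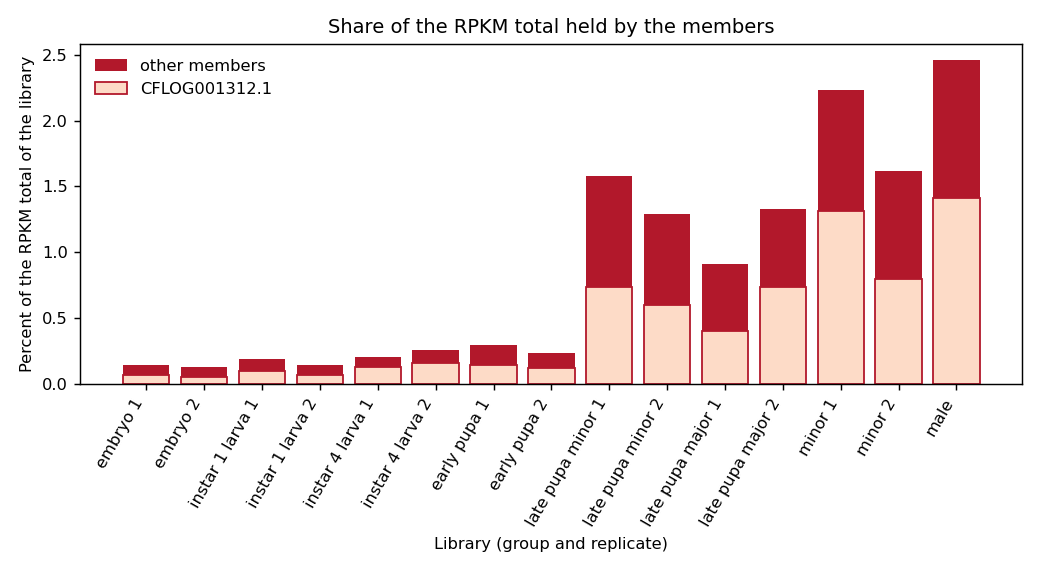
Percent of each library's RPKM total held by the 19 members (full bar) and by CFLOG001312.1 (pale part), for the 15 libraries in developmental order. The later libraries lie between 0.911% and 2.46%, all above the earlier ones, which reach 0.295%. This order follows largely from the rule.

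Replicates of the members differed most in minor. There the median absolute difference between the 2 libraries was 0.69 log2 units over members, against 0.38 over all genes tested, and 4 of 19 members differed by more than 1, where 10.6% of all genes did. CFLOG000583.2 was the furthest apart, at 1.91. In late pupa minor the median was 0.49 over members, against 0.35 over all genes, and 3 members differed by more than 1, where again 10.6% did. In late pupa major it was 0.19, against 0.28, and 0 members differed by more than 1.

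Features that the rule did not use were described beside all tested CFLOG genes. A length could be recovered from the steps of the values for 15 of 19 members and for 96.7% of the 10305 tested CFLOG genes. The 4 members without one were CFLOG001312.1, CFLOG004175.2, CFLOG008917.2 and CFLOG026158.1. A length needed at least 8 values under 3000 reads, so genes with many reads can lack one. Member lengths had a median of 708 nt, against 1155 nt over the 9965 CFLOG genes with a length. Since members lacked a length more often, whether members are shorter cannot be read from these medians. Of the 15 member lengths 14 were multiples of 3, beside 92.2% of all, so these are mostly coding lengths. Identifiers end in 1 of 2 number series: 36.8% of members were of the first, beside 38.4% of tested CFLOG genes. No member had another member as its neighbour by identifier number (0 of 33 neighbours). Of 23 neighbours that were tested, 52.2% had a higher later than earlier mean, beside 49.6% of all tested CFLOG genes, and 3 had a margin above 0, beside 8.41% of all. Whether identifier order follows genome position is not stated in these sources. CFLOG004546.2, the neighbour of CFLOG004547.2, had a margin of 1.38, and CFLOG007415.2, the neighbour of CFLOG007414.2, had a margin of 1.81 with a span of 2.52. These 2 neighbours were named after their values were seen.

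How firmly the set holds depends on the scale and on single libraries. On the deposited scale 12 genes met the rule, 8 of them among the 19. Factors ran from 0.551 to 1.527 over the later libraries, against 0.498 to 2.332 over the earlier ones. Without the male library 35 genes met the rule, the 19 and 16 more; the 16 were outside the set by the male library's values. Leaving out minor replicate 1 gave 13 genes, 11 of them members. In each of the other leave-one-out settings between 17 and 26 genes met the rule, and 5 members met it in all 14 such settings: CFLOG000107.1, CFLOG001312.1, CFLOG007110.2, CFLOG007414.2 and CFLOG007430.2.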

How the data were processed

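The labels' protocols describe whole-body RNA, poly(A) selection and dUTP strand-specific libraries. The submitters' processing notes list STAR 2.5.0b and DESeq2 without saying what each was used for. The build, the annotation and the counting method are not stated in these sources. The authors deposited RPKM for 18979 rows in 15 libraries, and every column was matched to a sample through its header.

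Members and lists were chosen with earlier results of these data known. Library divisors (16740000 to 34150000 reads) and gene lengths were worked out from the steps that 1 read makes in low RPKM values. Reads on genes with a length ranged from 2670000 to 7300000 per library, and 3 reads on 1000 nt correspond to 0.0879 to 0.179 RPKM. Floors of 3 reads cover counting error only.

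Tests used limma 3.58.1 in R 4.3.3 (trend) on log2(rescaled RPKM + 1), with 1 term per group, all 15 libraries, two-sided, Benjamini-Hochberg adjusted. Differences on this scale understate changes of low genes. Genes at 1 rescaled RPKM or more in at least 2 libraries were tested (10619), and all 19 members passed this filter, as the rule requires. The procedure was tested on simulated data. Simulated log2 changes of 1 were recovered in 5.26% of cases for male minus minor, and in 18.7% to 28.8% for the other comparisons. For log2 changes of 2 it was 53.1%, and 71.4% to 84.4%. A member that did not pass can therefore still have changed. Alternatives were the deposited scale, a pseudocount of 0.1, no filter, other limits of the rule, only the 2 groups compared, a replicate block and each library left out. Another way of computing or centring the factors was chosen after seeing the data.

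Named genes are the 2 members with the largest margin, highest later level and smallest span, those just inside and outside the margin, and the 2 largest called changes per direction and comparison. Others that are singled out were chosen after their values were seen.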

Additional observations from a re-analysis of the deposited data

How the results depend on the processing

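Of the 11 calls of single members, 54 of 99 alternative values kept the call, 45 lost it and 0 changed direction. The number of genes meeting the rule (19) was 12 on the deposited scale, 37 with a pseudocount of 0.1, 29 with a smaller margin and 8 with a margin of at least 2, 10 and 32 with spans under 1 and 2, and 35 without the male library. Leaving out 1 library gave 13 to 26. Members called between instar 1 larva and embryo (0) were 1 on the deposited scale, 2 with a pseudocount of 0.1 and 3 of 15 with only the 2 groups compared, and 0 to 1 with 1 library left out. Between instar 4 and instar 1 larva the 5 became 2, both lower, on the deposited scale and 3 with no filter, and 1 to 4 with 1 library left out. Between early pupa and instar 4 larva the 5 became 3 on the deposited scale and 1 with no filter, and 1 to 3 with 1 library left out. For the 2 late pupal castes the 0 became 0 to 2 with 1 library left out. For minor against late pupa minor the 1 became 0 on the deposited scale, with no filter and with only the 2 groups compared, and 0 to 3 with 1 library left out. For male against minor the 0 became 1 on the deposited scale, and 0 to 5 with 1 minor library left out, which sets 1 library against 1 and gives no replicate check, so no call is read from it. Where leaving out a library leaves 1 in a group, it is assumed to vary like the other groups. Over all genes, 2.95% passed between instar 1 larva and embryo as deposited, 1.31% with the pseudocount and 6.33% with only the 2 groups. Between instar 4 and instar 1 larva 51.1% passed as deposited and 2.51% with no filter. Between early pupa and instar 4 larva it was 11.3% and 8.01%. For minor against late pupa minor it was 16.4%, 16.1% and 21.4% in the order above, and for male against minor 12.3% as deposited. Nothing is read from counts with 1 library left out. The cause of these changes was not tested.

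No consistent pairing of libraries by replicate number was seen: same-numbered deviations correlated at -0.36 to 0.23 over 21 pairs of groups, with 4 above 0.1. The labels do not say whether same-numbered libraries share a source, and these values cannot settle it. With the replicate block the 6 comparisons called 0, 5, 5, 0, 1 and 0 members, as without it.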
